A study of Mus musculus with 11 samples.

Results

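The mitochondrial respiratory chain and ATP synthase were examined in sympathetic ganglia of aged mice with and without Apoe. Members were the single-gene probe sets whose platform gene symbol names a subunit of complexes I to V, a complex I assembly factor of the Ndufaf series, cytochrome c (Cycs) or cytochrome c1 (Cyc1). Cox7a1 and Cox8b, isoforms of complex IV subunits typical of muscle and brown fat, were left out of the members and are described separately. The choice found 158 of 22626 probe sets, which read 84 of the 12393 genes that single-gene probe sets named. A filter on low signal was passed by 145 probe sets of 82 genes. The 2 genes that did not pass were Cox6b2, the testis isoform of a complex IV subunit, and Cox7c, another complex IV subunit. Both were read by single-gene probe sets alone, since 8 probe sets with several genes that matched the pattern were not used. A low signal of these probe sets does not show that a gene was hardly expressed. Cox6b2 averaged a signal of 97.0 ± 28.3 in Apoe-deficient and 101 ± 23.7 in wild-type ganglia, and Cox7c averaged 85.8 ± 30.4 in Apoe-deficient and 101 ± 41.5 in wild-type ganglia (SD, n = 6 and 5).

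The study measured total RNA of sympathetic ganglia, cut out of frozen tissue by laser capture, on 11 Affymetrix arrays. The 6 Apoe-deficient arrays came from apoE-/- mice and the 5 wild-type arrays from wild-type mice. Both groups were 78-week-old C57BL males kept on normal chow, and neither received another treatment in the labels. Apoe encodes apolipoprotein E, a lipid carrier of plasma lipoproteins, and mice without it develop atherosclerosis. The labels do not tie arrays to single animals, so p-values measure the spread between these arrays, which may be partly technical.

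The respiratory chain sits in the inner mitochondrial membrane. Complex I oxidises NADH and complex II oxidises succinate, and both pass electrons through ubiquinone to complex III, cytochrome c and complex IV, which reduces oxygen. Complexes I, III and IV pump protons, and ATP synthase, also called complex V, uses the proton gradient to make ATP, on which neurons depend for ion transport along long axons. Most subunits are encoded in the nucleus and are the members here, while a few core subunits are encoded by mitochondrial DNA and were not analysed here.

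Apoe itself averaged a signal of 143 ± 84.6 in Apoe-deficient and 15155 ± 3020 in wild-type ganglia (SD, n = 6 and 5), a log2 difference of -6.75 ± 0.44 (SE; limma adjusted p = 1.88e-06). An exact two-sided permutation test over the 462 splits of the arrays gave 0.0022, its lowest attainable p. The ganglion markers Th, the first enzyme of noradrenaline synthesis, and Dbh, which makes noradrenaline from dopamine, were bright in both groups. Th averaged 13300 ± 3333 in Apoe-deficient and 14555 ± 2248 in wild-type ganglia, and Dbh averaged 11644 ± 3198 in Apoe-deficient and 14358 ± 2540 in wild-type ganglia. The arrays differed in the signal of their spiked hybridisation controls, which was lowest on Apoe-deficient arrays 2, 3 and 4 (10.65 to 10.86 on the log2 scale) and higher on the other 8 (11.57 to 13.03). On those 3 arrays the brightest probe set reached 13963 to 16632, against 22694 to 46838 on the other 8 arrays. No wild-type array had such a low control signal.

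No member differed between Apoe-deficient and wild-type ganglia past the threshold: 0 of 82 genes reached a limma adjusted p under 0.05, in a table in which 1.93% of 8433 genes did (0.676% lower and 1.26% higher in Apoe-deficient ganglia). Apart from signals, all values below are log2(signal + 16) after quantile normalisation, and all differences are Apoe-deficient minus wild-type on that scale. The smallest adjusted p of a member was 0.0578, for Atp5k. At an unadjusted limma p under 0.05 there were 10 of 82 members (12.2%), and all 10 had negative differences. Over all genes the share at that p was 20.3%, of which the genes with negative differences made up 12.3% of all tested. The members' share with negative differences at that p, 12.2%, thus stood at the background. Genes with positive differences made up the rest of the 20.3%, and no member was among them. The difference was negative for 56 members and positive for 26 (68.3% negative, against 57% of all genes). The median difference was -0.07 over the members and -0.04 over all genes. In these bulk samples, fewer cells of a type and less RNA per cell cannot be told apart.

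The members were measured more tightly than most genes. The median standard error was 0.10 for members and 0.15 over all genes, and the median absolute difference was 0.10 for members and 0.17 over all genes. The 95% interval of the difference held 0 for 72 of 82 members. It lay within -1 to 1 for all 82 members and within -0.5 to 0.5 for 72 of them, and the outermost bounds were -0.66 and 0.79. At this precision a change of 2-fold in either direction lay outside the interval of every member that passed the filter. Among probe sets, 0 of 145 passed the threshold, against 1.35% of 13863 probe sets, with a smallest adjusted p of 0.0691, and 104 had negative differences (52.6% of all probe sets did). At an unadjusted limma p under 0.05 there were 21 of 145 member probe sets, a smaller share than the 19.3% of all probe sets.

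**Figure D1:**
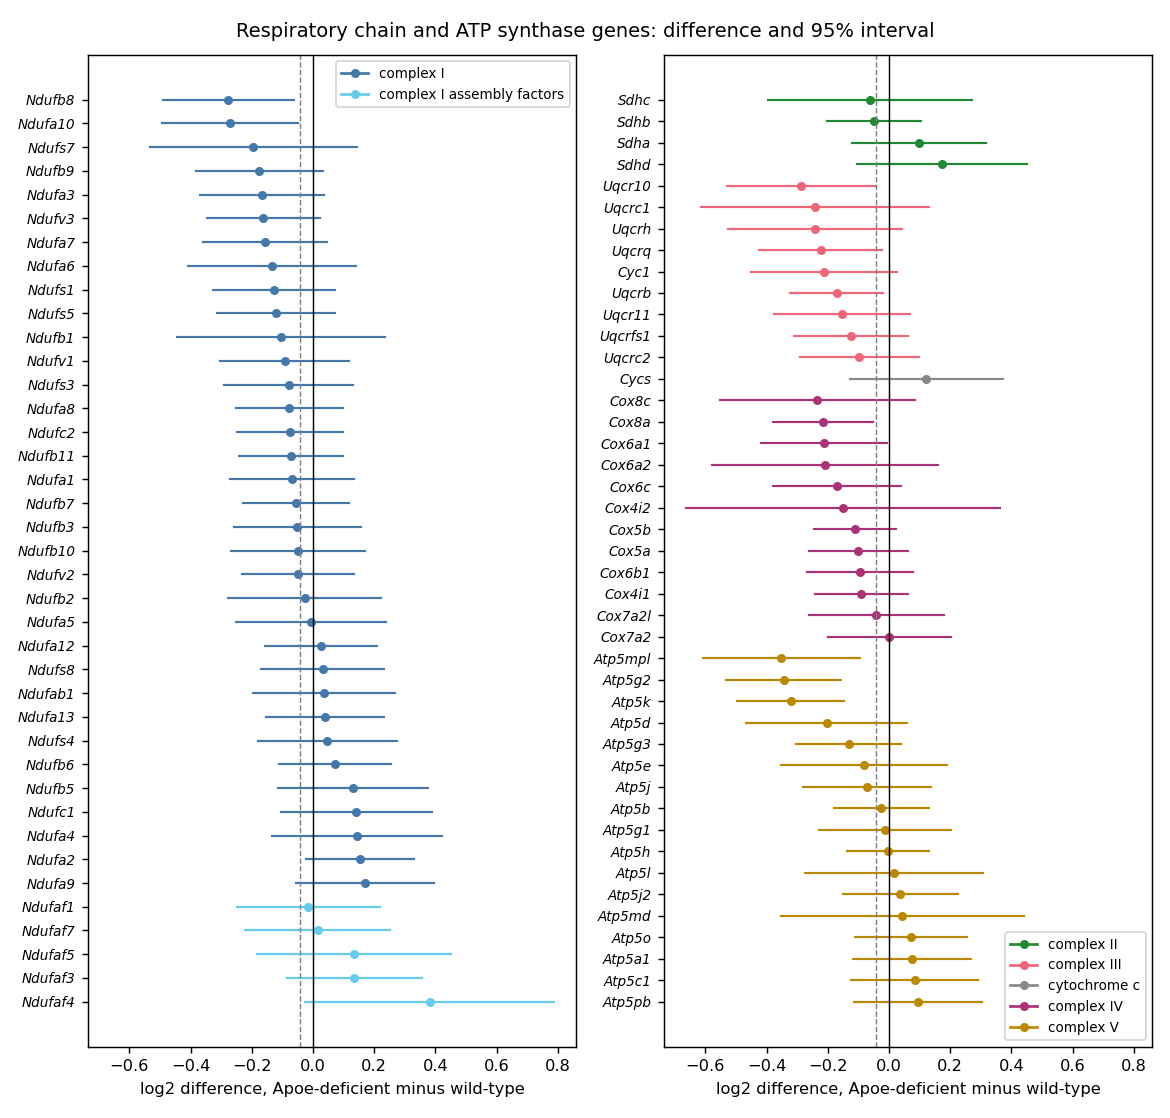
Log2 difference, Apoe-deficient minus wild-type, of the 82 member genes past the filter (x axis), ordered by complex on the y axis, with 95% intervals as bars and the median of all genes tested (-0.04) as a dashed line. All 9 complex III genes and 11 of 12 complex IV genes lie left of 0, and 72 of 82 intervals hold 0.

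By complex, the median difference was lowest for complex III and complex IV. It was -0.21 for the 9 complex III genes, -0.13 for the 12 complex IV genes, -0.06 for the 34 complex I subunits, -0.01 for the 17 genes of ATP synthase, 0.03 for the 4 complex II genes and 0.13 for the 5 complex I assembly factors. The plot of differences by complex shows that the intervals of single genes overlap widely between complexes. No interval was computed for the median of a complex, and the complexes were not tested against each other. None of these groups held a member past the threshold. Among probe sets, the difference was negative for 13 of 14 in complex III and 22 of 24 in complex IV. For complex I and complex V it was negative for 47 of 65 and 16 of 26. It was negative for 5 of 7 in complex II and 1 of 6 for the assembly factors.

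The regulatory sequence of the members that stood closest to the threshold is shown first, because the genes of the chain are encoded on different chromosomes and are known to share motifs of the activators NRF1, GABPA and ERRα in their promoters. Promoters of 300 bases, from 250 bases before to 50 after the annotated start, were taken from RefSeq (GRCm38.p6) and were used for 69 of the 84 member genes. The promoter of Atp5k, subunit e of ATP synthase, lies on the minus strand at chr5:108434350-108434649. The promoter of Atp5g2, a gene for the c subunit, lies on the minus strand at chr15:102670998-102671297. Both are printed 5′ to 3′. Capitals mark matches to GCGCATGCGC (NRF1, GCGCA followed by its reverse complement), CCGGAAG (GABPA, here also as its reverse complement CTTCCGG) and AAGGTCA (ERRα), each searched on both strands.
Atp5k: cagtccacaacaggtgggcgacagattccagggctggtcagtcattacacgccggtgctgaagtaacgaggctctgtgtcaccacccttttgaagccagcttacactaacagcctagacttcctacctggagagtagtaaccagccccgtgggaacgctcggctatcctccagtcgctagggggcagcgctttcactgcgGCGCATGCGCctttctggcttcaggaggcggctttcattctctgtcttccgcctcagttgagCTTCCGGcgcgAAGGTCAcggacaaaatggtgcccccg
Atp5g2: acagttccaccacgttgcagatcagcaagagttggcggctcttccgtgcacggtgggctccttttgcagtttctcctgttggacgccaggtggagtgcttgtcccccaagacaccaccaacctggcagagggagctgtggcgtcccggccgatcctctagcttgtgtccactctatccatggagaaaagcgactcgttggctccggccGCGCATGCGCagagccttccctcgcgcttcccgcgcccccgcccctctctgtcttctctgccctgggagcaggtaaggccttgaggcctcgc

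The NRF1 motif GCGCATGCGC, which is its own reverse complement, was found in the promoters of 6 of 69 members (8.70%) and of 290 of 27025 genes (1.07%). The 6 members were Atp5g2, Atp5k and Cox6a1, whose windows lie on the minus strand, and Ndufaf4, Ndufaf5 and Uqcrc1, whose windows lie on the plus strand. The windows are chr15:102671070-102671099 for Atp5g2, chr5:108434430-108434459 for Atp5k, chr5:115349101-115349130 for Cox6a1, chr4:24897960-24897989 for Ndufaf4, chr2:140170652-140170681 for Ndufaf5 and chr9:108936668-108936697 for Uqcrc1. They are printed because the 6 genes share these 10 letters while their differences had both signs; capitals mark the motif.
Atp5g2: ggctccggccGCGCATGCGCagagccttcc
Atp5k: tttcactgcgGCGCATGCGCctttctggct
Cox6a1: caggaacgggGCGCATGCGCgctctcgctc
Uqcrc1: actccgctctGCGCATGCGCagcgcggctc
Ndufaf4: ccagatgtctGCGCATGCGCctgtgcggaa
Ndufaf5: agtcccgttgGCGCATGCGCctaatagaaa

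Of these 6 genes, Atp5g2, Atp5k, Cox6a1 and Uqcrc1 had negative differences and Ndufaf4 and Ndufaf5 positive ones, with a median of -0.23. The median over all members was -0.07, and the 6 genes were not tested against the other members. The value depended on the arrays. Without the Apoe-deficient arrays of low control signal, Cox6a1 had -0.05 and Uqcrc1 had 0.09, while Atp5g2 and Atp5k stayed negative. The median of the 6 genes was not computed without those arrays. The GABPA motif was found in 18 of 69 member promoters (26.1%) and in 9.93% of all promoters, and the 18 members had a median difference of -0.06. The ERRα motif was found in 7 of 69 member promoters (10.1%) and in 5.38% of all promoters, with a median difference of -0.08. Promoters on chromosome 18 were left out for the members but kept in the shares over all genes. A match is a description of the letters in this window and says nothing of binding in these ganglia.

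In complex I, the NADH dehydrogenase, the difference was negative for 23 of 34 subunit genes, and 2 had an unadjusted p under 0.05. Ndufb8, an accessory subunit, had the lowest difference. It measured 11.90, 12.12 and 12.30 (lowest, median and highest) in the 6 Apoe-deficient ganglia, against 12.36, 12.56, 12.36, 12.15 and 12.48 in wild-type ganglia 1 to 5. Wild-type array 4 lay inside the Apoe-deficient range and the other 4 wild-type arrays above it, and the difference was -0.28 ± 0.10 (SE; limma adjusted p = 0.155). Ndufa10, another accessory subunit, measured 10.90, 11.24 and 11.29 (lowest, median and highest) in Apoe-deficient ganglia, against 11.53, 11.48, 11.21, 11.35 and 11.50 in wild-type ganglia. Its groups overlapped through wild-type array 3, and its difference was -0.27 ± 0.10 (SE; limma adjusted p = 0.172). With the level of the control signal as a block, the differences of Ndufb8 and Ndufa10 were -0.16 and -0.17.

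The other complex I genes had smaller differences. The 6 core subunits, among them the carriers of the flavin and the iron-sulphur clusters, had a median difference of -0.09, and the 28 accessory subunits had -0.05. Ndufv3, the brightest complex I gene, had a difference of -0.16 (limma adjusted p = 0.305), and Ndufa9 had the highest, 0.17 (limma adjusted p = 0.370). Ndufa4, named as a complex I subunit but later assigned to complex IV, had 0.14 (limma adjusted p = 0.551). Ndufs8, an iron-sulphur core subunit, was read by 6 probe sets whose differences ran from -0.23 to 0.41. Its 6 readings disagreed in sign, and the brightest gave 0.03 (limma adjusted p = 0.870). Of 43 members with several probe sets past the filter, 15 had probe sets that differed in sign. Ndufs8 was the only such gene with a gap over 0.5.

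The assembly factors of complex I, which build the complex and are not part of it, were the group with mostly positive differences, 4 of 5 genes. Ndufaf4 had the highest difference of any member, 0.38 ± 0.19 (SE; limma adjusted p = 0.276), and its other probe set gave 0.51 (limma adjusted p = 0.131). Ndufaf3 and Ndufaf5 had 0.13 each, and Ndufaf1 had -0.02 (limma adjusted p = 0.948). Without the 3 Apoe-deficient arrays of low control signal the difference of Ndufaf4 was 0.07 and the median of the 5 factors was -0.04.

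Complex II, succinate dehydrogenase, is also an enzyme of the citric acid cycle, and 0 of its 4 subunit genes passed the threshold, with differences from -0.06 to 0.17. Sdha, the flavoprotein, had a difference of 0.10 (limma adjusted p = 0.604), and Sdhb, the iron-sulphur protein and brightest of the 4, had -0.05 (limma adjusted p = 0.732). The membrane anchors Sdhc and Sdhd had -0.06 and 0.17 (limma adjusted p = 0.840 and 0.458). The second probe sets of Sdha and Sdhd had the opposite sign, -0.10 each. Of the 7 complex II probe sets 5 had negative differences. The median over all 7 was -0.05, against 0.03 over the 4 genes. Cycs, the mobile electron carrier between complexes III and IV, had 0.12 (limma adjusted p = 0.573), and its 3 probe sets all had positive differences, 0.12 to 0.20.

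In complex III, the ubiquinol to cytochrome c reductase, all 9 genes had negative differences, from -0.29 to -0.10, and none passed the threshold. Uqcr10, a small accessory subunit, had the lowest. It measured 10.91, 11.19 and 11.61 (lowest, median and highest) in Apoe-deficient ganglia, against 11.45, 11.49, 11.46, 11.44 and 11.68 in wild-type ganglia 1 to 5. Of the Apoe-deficient arrays 1 lay above 4 of the wild-type arrays and 5 lay below all of them, and the difference was -0.29 ± 0.11 (SE; limma adjusted p = 0.183). Uqcrb, the ubiquinone-binding subunit and brightest gene of the complex, measured 12.97, 13.10 and 13.26 (lowest, median and highest) in Apoe-deficient ganglia, against 13.25, 13.22, 13.27, 13.31 and 13.36 in wild-type ganglia. The groups overlapped by only a small margin, and the difference was -0.17 ± 0.07 (SE; limma adjusted p = 0.198). A second, dimmer probe set of Uqcrb gave 0.03, the one complex III probe set of 14 with a positive difference.

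Uqcrq, an accessory subunit beside cytochrome b, measured 11.59, 11.76 and 12.06 (lowest, median and highest) in Apoe-deficient ganglia, against 12.01, 12.09, 11.83, 11.93 and 12.11 in wild-type ganglia. Its ranges overlapped, with a difference of -0.22 ± 0.09 (SE; limma adjusted p = 0.203). The catalytic and structural subunits had similar values with larger adjusted p. Cyc1, the cytochrome c1 subunit that hands electrons to cytochrome c, had -0.21 (limma adjusted p = 0.300), and Uqcrfs1, the Rieske iron-sulphur protein, had -0.12 (limma adjusted p = 0.427). The core proteins Uqcrc1 and Uqcrc2 had -0.24 and -0.10 (limma adjusted p = 0.434 and 0.563). Uqcrh, the hinge protein, had -0.24 (limma adjusted p = 0.319), and Uqcr11 had -0.15 (limma adjusted p = 0.410).

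Averaged over its 9 genes as the deviation from each gene's mean over all arrays, complex III measured -0.06, -0.23, -0.07, -0.02, -0.06 and -0.09 in Apoe-deficient ganglia 1 to 6, against 0.05, 0.19, 0.05, 0.03 and 0.21 in wild-type ganglia 1 to 5. The 2 groups did not overlap, and their means were -0.09 ± 0.07 in Apoe-deficient and 0.11 ± 0.09 in wild-type ganglia (SD, n = 6 and 5). The lowest wild-type array and the highest Apoe-deficient array were close to each other. Of 24 groups and lists averaged in this way, complex III and the macrophage markers were the 2 whose arrays did not overlap. These members were chosen with results of these data known, and no p is given for the mean. With the level of the control signal as a block, the median of complex III was -0.22 and 8 of 9 genes were negative, Uqcrc1 being the exception at 0.08 and Cyc1 standing at -0.06. The median was -0.23 without the 3 arrays of low control signal and -0.18 within the 4 arrays of high control signal, 2 of each group. The 3 arrays of low control signal are all Apoe-deficient. The block and their removal thus draw the difference from the same remaining arrays and are not separate checks.

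**Figure D2:**
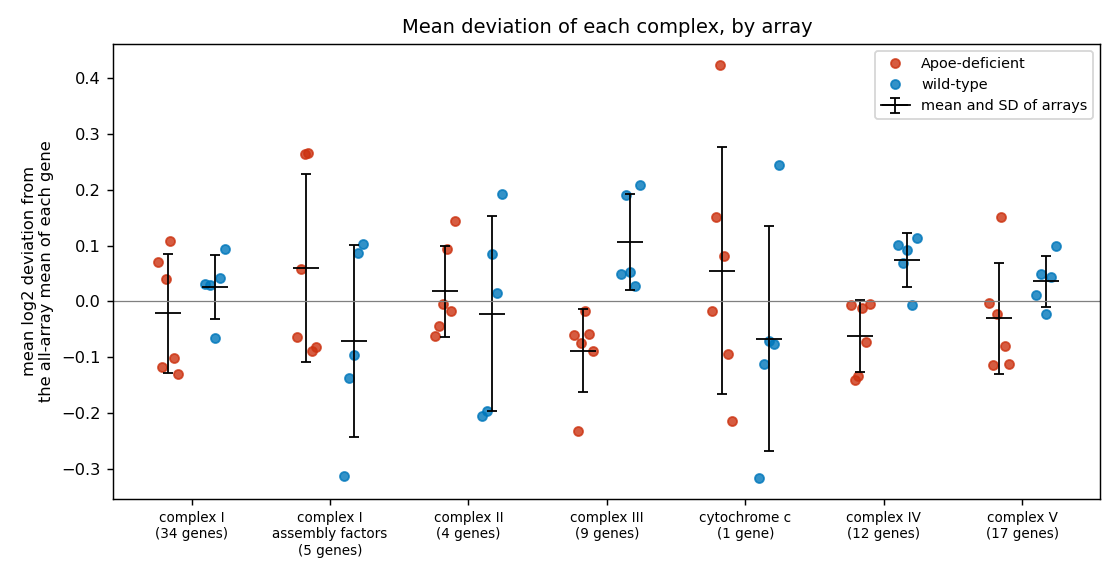
Mean deviation of each complex (y axis, log2 units from each gene's mean over the 11 arrays) on each array, Apoe-deficient left and wild-type right, with the group mean and SD as bars. The complex III arrays do not overlap between groups (-0.23 to -0.02 in Apoe-deficient, 0.03 to 0.21 in wild-type), while those of the other complexes do.

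In complex IV, cytochrome c oxidase, 11 of 12 genes had negative differences and none passed the threshold. Cox8a, the ubiquitous form of a small subunit, measured 12.53, 12.66 and 12.89 (lowest, median and highest) in Apoe-deficient ganglia, against 12.87, 12.95, 12.85, 12.77 and 13.02 in wild-type ganglia 1 to 5. The ranges overlapped, and the difference was -0.22 ± 0.08 (SE; limma adjusted p = 0.150), with -0.21 at its other probe set. Cox6a1, the form of subunit 6A found in most tissues and the brightest member of the complex, measured 13.49, 13.75 and 13.94 (lowest, median and highest) in Apoe-deficient ganglia, against 14.11, 14.08, 13.83, 13.78 and 13.90 in wild-type ganglia. Wild-type arrays 1 and 2 lay above the Apoe-deficient range and the other 3 inside it, and the difference was -0.21 ± 0.10 (SE; limma adjusted p = 0.238). On the deposited scaling alone, without quantile normalisation, the Cox6a1 difference was -0.40, and without the 3 arrays of low control signal it was -0.05.

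Isoforms of complex IV subunits that differ by tissue had values between -0.23 and 0.00. Cox4i1, the common form of subunit 4, had -0.09 (limma adjusted p = 0.479), and Cox4i2, the lung form, had -0.15 (limma adjusted p = 0.749). Cox6a2, the heart and muscle form, was dim and had -0.21 (limma adjusted p = 0.507). Cox6b1 had -0.09 (limma adjusted p = 0.528), while Cox7a2 and the supercomplex factor Cox7a2l had 0.00 and -0.04 (limma adjusted p = 0.998 and 0.842). Cox8c, the testis form of Cox8a, had -0.23 (limma adjusted p = 0.384), the lowest of the complex. The mean deviation of complex IV ran from -0.14 to -0.00 in Apoe-deficient ganglia and from -0.01 to 0.11 in wild-type ganglia, so the groups met at the edges. Without quantile normalisation its median was -0.22, in place of -0.13, and the value of Cox7a2 turned to -0.22.

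ATP synthase held the members closest to the threshold, although its median difference was -0.01 and 7 of its 17 genes had positive values. Atp5k, subunit e, which links synthase dimers in the membrane, measured 12.75, 12.99 and 13.21 (lowest, median and highest) in Apoe-deficient ganglia, against 13.39, 13.38, 13.28, 13.25 and 13.32 in wild-type ganglia 1 to 5. The groups did not overlap. The difference was -0.32 ± 0.08 (SE; 95% interval -0.50 to -0.15; limma adjusted p = 0.0578), and its other 2 probe sets gave -0.11 and -0.25. Atp5g2 measured 10.73, 10.90 and 11.11 (lowest, median and highest) in Apoe-deficient ganglia, against 11.22, 11.28, 11.13, 11.25 and 11.33 in wild-type ganglia. All 5 wild-type arrays lay above the Apoe-deficient range, and the difference was -0.34 ± 0.09 (SE; 95% interval -0.53 to -0.16; limma adjusted p = 0.0592). These 2 were the members whose groups did not overlap, 2.44% of members, both with lower values in Apoe-deficient ganglia. Over all genes 2.96% did not overlap and 1.51% did so with lower values. With limma's array weights both genes were called, as were Cox8a and Ndufb8 (4 members), in a fit that called 7.92% of all genes. Without Apoe-deficient array 1 both were called as well (limma adjusted p = 0.0260 for each), in a fit that called 3.11% of all genes. That array had the highest ratio of 3′ to 5′ actin signal, a sign of RNA quality, at 5.16, against 1.88 to 3.55 on the other 10 arrays. The ratio for Gapdh ran from 0.849 to 1.396 on the Apoe-deficient arrays and from 0.990 to 1.499 on the wild-type arrays, and the part of RNA quality in the member values was not tested.

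Atp5mpl, a small proteolipid of the membrane part, had the lowest difference of any member, -0.35 ± 0.12 (SE; limma adjusted p = 0.136). It measured 11.54, 11.83 and 12.31 (lowest, median and highest) in Apoe-deficient ganglia, against 12.19, 12.24, 12.11, 12.23 and 12.14 in wild-type ganglia. An Apoe-deficient array lay above all 5 wild-type arrays. It was called without Apoe-deficient array 4 (-0.45, limma adjusted p = 0.0370), in a fit that called 1.2% of all genes, and without the 3 arrays of low control signal (-0.57, limma adjusted p = 0.0245), in a fit that called 0.294%.

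The c subunit that forms the rotating ring is encoded by 3 genes, which specify the same mature protein and differ in their import sequences. Atp5g2, Atp5g3 and Atp5g1 had differences of -0.34, -0.13 and -0.01, of which the last 2 had limma adjusted p of 0.359 and 0.956. The 5 genes of the catalytic F1 part had a median difference of -0.02, and Atp5pb, subunit b of the stalk, had the highest value of the complex, 0.10 (limma adjusted p = 0.599).

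**Figure D3:**
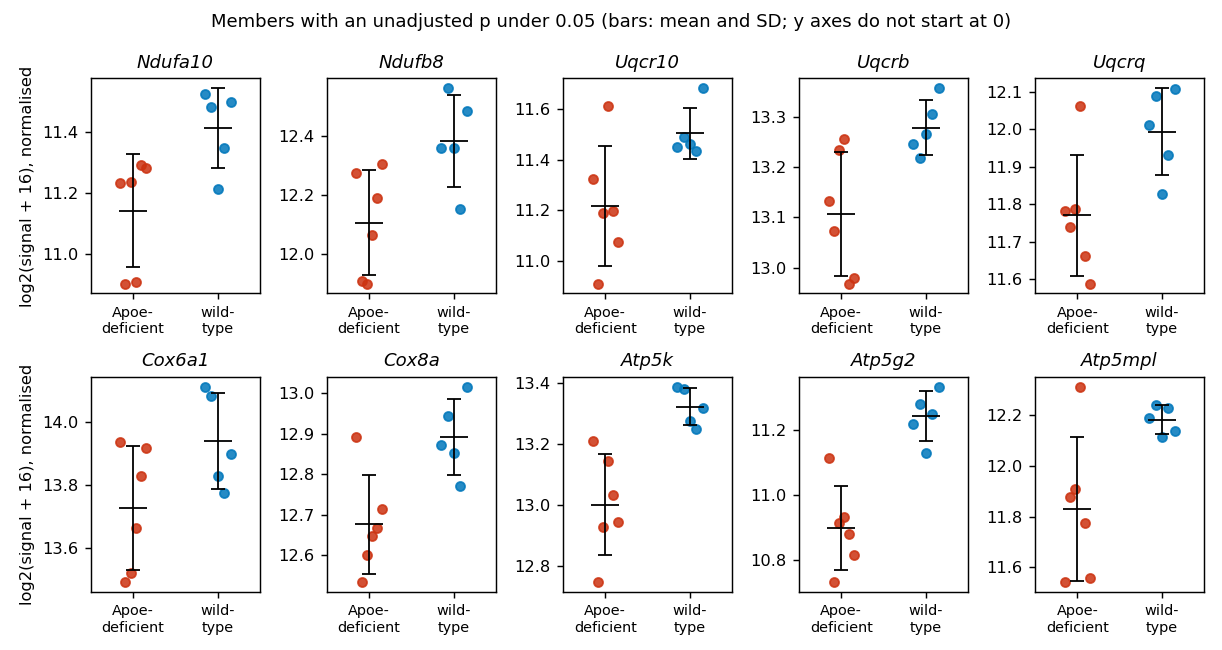
Log2(signal + 16) after quantile normalisation on each array (y axis) for the 10 members with an unadjusted limma p under 0.05, Apoe-deficient left and wild-type right, with bars at the group mean and SD on axes that do not start at 0. Atp5k and Atp5g2 have no overlap between groups, and the other 8 do.

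Markers of adipocytes, another cell type whose mitochondria carry these proteins, had negative differences beside these values. The 2 genes left out of the members are among them. Cox8b averaged a signal of 418 ± 240 in Apoe-deficient and 1335 ± 859 in wild-type ganglia, a log2 difference of -1.66 (limma adjusted p = 0.0622). Cox7a1 averaged 147 ± 60.2 in Apoe-deficient and 226 ± 119 in wild-type ganglia, with -0.48 (limma adjusted p = 0.382). Of the brown adipocyte markers, 6 of 7 measured had negative differences with a median of -0.48 and 0 called, and Cidea, a lipid droplet protein, had -1.23 (limma adjusted p = 0.105). Ucp1 varied widely between arrays, with -0.78 ± 0.63 (SE; limma adjusted p = 0.492). Fabp3 was the marker with a positive difference, 0.08 (limma adjusted p = 0.785). Their summed signal ran from 2282 to 4546 in Apoe-deficient and from 3193 to 8474 in wild-type ganglia. Of the white adipocyte markers, 13 of 13 had negative differences with a median of -0.56 and 0 called, among them Pnpla2, the first lipase of fat breakdown, with -0.84 (limma adjusted p = 0.0799), and Scd1, a fatty acid desaturase, with -0.46 (limma adjusted p = 0.164). Their summed signal ran from 17455 to 78766 in Apoe-deficient and from 38865 to 90715 in wild-type ganglia. Within the 4 arrays of high control signal the direction turned, with a white adipocyte median of 0.72, a value of 0.08 for Pnpla2 and one of 0.12 for Scd1, while the brown adipocyte median was -0.31.

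The mean deviation of the brown adipocyte markers was highest on wild-type arrays 5 and 2, at 1.10 and 0.75, and these were also the arrays highest in complex III, at 0.21 and 0.19. The Apoe-deficient arrays did not share this order. Array 6 was their highest in the brown adipocyte markers, at 0.34, with -0.09 in complex III. Array 4 was their highest in complex III, at -0.02, with -0.46 in the brown adipocyte markers. With the brown adipocyte score as a covariate, a choice made after seeing the data, the median of complex III was -0.11 with 9 of 9 genes negative, and with the white adipocyte score it was -0.22. The brown adipocyte score averaged -0.31 in Apoe-deficient and 0.37 in wild-type ganglia, and the white adipocyte score -0.27 and 0.32. Because the scores themselves differed between the groups, these fits cannot tell adipocytes from genotype. Whether adipocytes had a part in the complex III values was not tested.

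**Figure D4:**
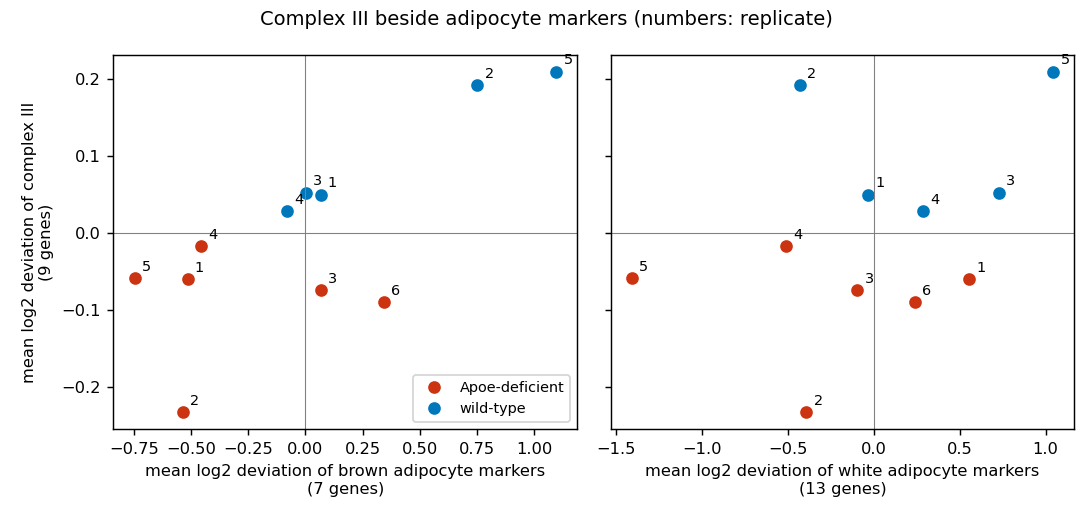
Mean deviation of complex III (y axis, log2 units) against that of the brown adipocyte and of the white adipocyte markers (x axes, log2 units), one point per array, Apoe-deficient and wild-type in different colours and numbered by replicate. Wild-type arrays 2 and 5 are highest on the complex III axis and on the brown adipocyte axis. Of the Apoe-deficient arrays, array 4 is highest on the complex III axis and array 6 on the brown adipocyte axis.

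Markers of other cell types were counted in the same way. Macrophage markers were the list with most calls: 10 of 15 were called higher in Apoe-deficient ganglia and all 15 differences were positive, with a median of 0.82, such as C1qc, a complement component, at 1.43 (limma adjusted p = 3.36e-04), and Lyz2, the macrophage lysozyme, at 1.19 (limma adjusted p = 6.94e-04). Their summed signal ran from 12467 to 18128 in Apoe-deficient and from 7317 to 9261 in wild-type ganglia. Fibroblast markers had a median of 0.46 with 1 of 8 called, Postn, a matrix protein, at 1.10 (limma adjusted p = 0.00594), while Col3a1, a collagen, had 0.79 (limma adjusted p = 0.0747). The 20 sympathetic neuron markers had a median of -0.03 and 0 called. Among them Nefh, the heavy neurofilament, had -0.46 (limma adjusted p = 0.0534), and Slc18a1, a vesicular monoamine transporter, had 1.62 (limma adjusted p = 0.0685). Nefh passed the threshold under 7 of 26 alternatives and Slc18a1 under 4 of 26. The call of Postn was lost when the level of the control signal was blocked (0.93, limma adjusted p = 0.0610), without the 3 arrays of low control signal (0.86, limma adjusted p = 0.125), within the 4 arrays of high control signal and with the brown adipocyte score. C1qc and Lyz2 were not called within those 4 arrays, at limma adjusted p = 0.136 and 0.248, and were called under the other 25 alternatives. The part of these cell types in the member values was not tested.

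Glial, vascular and muscle lists held no called gene. The 11 satellite glia and Schwann cell markers had a median of -0.21, with Ttyh1 at -0.33 and Ednrb at -0.37. The 11 endothelial and mural markers had a median of 0.15, with Pecam1 at 0.50 and Kdr at -0.34. Of 16 skeletal and heart muscle markers only Ckm, at -0.24, and Myl1, at 0.37, passed the filter, and the defining gene Acta1 was dim, at 37.2 ± 32.3 in Apoe-deficient and 91.3 ± 25.6 in wild-type ganglia.

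Other mitochondrial genes of lists written for comparison held 1 called gene in all. It was Mrps12, a protein of the small mitochondrial ribosome subunit, with a difference of -0.82 ± 0.11 (SE; limma adjusted p = 0.00113) and no overlap between groups. Within the 4 arrays of high control signal its difference was -0.70 and was not called (limma adjusted p = 0.397); it was called under the other 25 alternatives. The 38 genes of the mitochondrial ribosome and translation had a median of -0.04, 27 of them negative, and Mrpl34, of the large subunit, had -0.32 (limma adjusted p = 0.125). The 25 assembly factors of complexes II to V had a median of -0.01 and 0 called, with Cox20 at 0.31 and Tmem70 at 0.24.

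The lists around the chain also held no called gene. The 19 genes of the citric acid cycle and pyruvate entry had a median of -0.11, with Pcx, pyruvate carboxylase, at -0.87 (limma adjusted p = 0.108) and Dld, a dehydrogenase subunit shared by several complexes, at 0.42 (limma adjusted p = 0.144). The 17 regulators of mitochondrial biogenesis had a median of -0.11, with Tfam, which packages mitochondrial DNA, at 0.38 (limma adjusted p = 0.110) and Sirt1, a deacetylase, at 0.41 (limma adjusted p = 0.212). The 21 carriers and outer membrane genes had a median of -0.01, with the pore protein Vdac1 at -0.36 (limma adjusted p = 0.0990) and the import receptor Tomm20 at 0.33 (limma adjusted p = 0.151). The 10 genes of oxidant defence had a median of -0.09, with Gpx4 at -0.36 and Sod1 at -0.12. These small medians changed sign: within the 4 arrays of high control signal that of the citric acid cycle was 0.08, with Pcx at 0.09, and that of oxidant defence was 0.0093, and a block for the control signal gave 0.02 for that of the biogenesis regulators.

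The lists of fuel pathways had lower medians, which depended on the arrays. The 16 genes of fatty acid oxidation had a median of -0.20 and 0 called, with Acads at -0.50 and Acadvl at -0.32, both acyl-CoA dehydrogenases (limma adjusted p = 0.137 for each). The list's median was 0.03 within the 4 arrays of high control signal and -0.05 with the brown adipocyte score. The 14 glycolytic genes had a median of -0.17 and 0 called, with 12 negative values. A block for the control signal gave them a median of -0.04, and leaving out the 3 arrays of low control signal gave -0.05. Aldoc, the brain form of aldolase, had -0.53 with no overlap between groups (limma adjusted p = 0.0548) and passed the threshold under 9 of 26 alternatives, and Tpi1, triose phosphate isomerase, had 0.23 (limma adjusted p = 0.194).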

How the data were processed

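The authors deposited linear intensity values, 1 per probe set and array, made with GCOS 1.4 per the submitters' processing notes. The sources used here do not state how GCOS summarised probes. The 2% trimmed means of all arrays lay near 500.2, which shows a scaling to 1 common mean, and medians lay between 163 and 188.6. Probe sets were named through the platform annotation; 20380 carried 1 gene, 691 several and 1555 none, and 8 with several genes that matched the members' pattern were not used. All 84 member identifiers were found in the RefSeq table (GRCm38.p6).

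Values were converted to log2(signal + 16), which understates the change of dim genes, and quantile normalised. Probe sets above the table's 40th percentile in 5 or more arrays were kept, and the brightest single-gene probe set stood for a gene. The two-sided test was limma 3.58.1 in R 4.3.3 with an intensity trend, over all 8433 genes, with Benjamini-Hochberg adjustment at 0.05, and the script was tested on simulated data. Groups came from the sample titles; Apoe had an exact permutation test. Figures used matplotlib 3.10.9. The number of arrays limits the precision.

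Members, lists and the rule for named genes were chosen with earlier results of these data known. The rule names, per complex, the brightest gene and the largest difference in each direction, all Sdh genes, isoform partners, discordant genes, Cox7a1, Cox8b, Apoe and the 2 smallest p of each list. Atp5k, Cox8a, Uqcrq, Ndufa10, Cyc1, Uqcr11, Uqcrh, Uqcrc1, Uqcrc2, Uqcrfs1, Cox7c, Ndufaf5, Th, Dbh, Acta1, Ucp1 and Fabp3 were named after their values were seen. Alternatives changed the scaling, pseudocount, filter, probe set rule, variance model, replicate block and arrays. The control level and adipocyte scores were added after seeing the data. The low control level held only Apoe-deficient arrays. Blocking the level and leaving those arrays out therefore draw differences from the same remaining arrays.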

Additional observations from a re-analysis of the deposited data

Results flagged for a closer look

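Of 96 groups of arrays examined for a single array far from the others, 3 held one, and chance gives about 1 in 20. Uqcr10 in wild-type array 5 measured 11.68, while the other wild-type arrays lay between 11.44 and 11.49. Apoe in Apoe-deficient array 3 measured 4.641, while the other Apoe-deficient arrays lay between 7.087 and 8.175. The mean deviation of complex III in Apoe-deficient array 2 was -0.2322, while the other Apoe-deficient arrays lay between -0.089 and -0.017. Array 2 and array 3 are among the 3 arrays of low control signal, and the part of that level in these values was not tested.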

How the results depend on the processing

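No member was called under 22 of 26 alternatives (limma). With array weights 4 genes (Atp5g2, Atp5k, Cox8a and Ndufb8) and 6 probe sets were called, when 668 genes of the whole table were; without the 3 arrays of low control signal 1 gene and 1 probe set were called (Atp5mpl). With single arrays left out, 0 to 2 member genes were called and 0 to 3 probe sets: Atp5g2 and Atp5k without Apoe-deficient array 1 (limma adjusted p = 0.0260 for each) and Atp5mpl without Apoe-deficient array 4. The median of complex III ran from -0.24 to -0.11 over all alternatives and that of complex IV from -0.22 to -0.08. The complex IV median was -0.22 on the deposited scaling and -0.21 after median centring, that of complex III was -0.11 with the brown adipocyte score, that of complex II was 0.27 within the 4 arrays of high control signal, and that of the assembly factors was -0.039 without the low arrays. The cause was not tested.

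Some differences changed sign. The deposited scaling gave 0.00115 for Ndufaf1, -0.22 for Cox7a2 and 0.0086 for Atp5g1, and median centring gave 0.011, -0.21 and 0.019. The mean of probe sets gave -0.00057 for Cox7a2 and -0.026 for Ndufs8. With the control level as a block, values were 0.18 for Sdhc, -0.16 for Cox7a2, 0.0028 for Atp5g3, -0.025 for Atp5pb, 0.019 for Cox4i2, 0.068 for Cox7a2l, -0.10 for Ndufa4, 0.026 for Atp5g1, 0.081 for Uqcrc1 and 0.11 for Ckm. Without the 3 low arrays they were 0.10 for Sdhc, -0.047 for Cycs, -0.20 for Cox7a2, -0.068 for Atp5pb, 0.042 for Cox4i2, 0.084 for Cox7a2l, -0.11 for Ndufa4, 0.053 for Atp5g1, 0.087 for Uqcrc1 and 0.089 for Ckm. Within the high control level, with 2 arrays a group, they were 0.023 for Ndufaf1, 0.36 for Sdhc, -0.13 for Cox7a2, 0.46 for Cox4i2, 0.12 for Cox7a2l, -0.19 for Ndufa4, -0.16 for Ndufs8, 0.091 for Pcx, 0.081 for Pnpla2 and 0.12 for Scd1. The brown adipocyte score gave 0.094 for Ndufaf1, 0.014 for Sdhb, -0.026 for Cox7a2, 0.018 for Cox4i2 and 0.27 for Cox7a1 (itself part of that score, so its value there says nothing), and the white adipocyte score gave 0.042 for Ndufaf1, 0.027 for Sdhc, 0.086 for Cox4i2, 0.014 for Cox7a2l and -0.033 for Ndufs8. Without 1 array at a time, values ran from -0.061 to 0.050 for Atp5g1, -0.054 to 0.059 for Cox7a2, -0.11 to 0.0049 for Cox7a2l, -0.073 to 0.043 for Ndufaf1, -0.019 to 0.078 for Ndufs8, -0.15 to 0.020 for Sdhc and -0.11 to 0.74 for Myl1.

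Replicate numbers did not pair the arrays: deviations of same-numbered arrays correlated at 0.15, -0.18, -0.03, -0.00032 and -0.18, and 0 of 5 pairs matched best. With the replicate number as a block 0 members were called, 185 genes in all, and Ndufaf1 was 0.000075 and Atp5g1 0.013.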
